A study of Mus musculus with 2 samples.

Results

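The Ifit genes of the mouse, Ifit1, Ifit2, Ifit3, Ifit3b, Ifit1bl1 and Ifit1bl2, were followed by symbol through single-cell counts from bone marrow, as 6 of the 32285 genes in the deposited tables. The study sorted natural killer progenitors (NKP), cells described as carrying CD122 and free of Ncr1, NK1.1, c-kit, Sca-1 and lineage markers. CD122 is the receptor chain encoded by Il2rb. There was 1 library from wild-type C57BL/6 mice (WT) and 1 from Irf4-/- mice, in which the gene of the lymphocyte transcription factor IRF4 is disrupted. No treatment is named for either group, and the strain of the Irf4-/- mice, the ages and the number of animals behind each library are not given in the sources at hand. The counts are of unique molecular identifiers (UMIs), read near the 3′ end of transcripts, and levels are given as CPM, the UMIs of a gene per 1000000 UMIs of the cells considered. A 3′ count does not grow with transcript length, so the CPM of different genes are set side by side. The 6 genes were chosen with these counts known: what chose them was their level in each library, in interferon-responding cells against the rest, and in T, gamma-delta T and B cells. All such levels are therefore descriptions, with no test. Each genotype had 1 library and thus no replicate, and the 95% intervals given here cover counting error only.

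Ifit genes code for interferon-induced proteins built of tetratricopeptide repeats. Type I interferon acts through the receptor chains Ifnar1 and Ifnar2 and the kinases Jak1 and Tyk2 on a complex that contains Stat2 and Irf9 and binds interferon-stimulated response elements (ISRE) in promoters. IFIT1 binds viral RNA whose cap lacks a methyl mark and blocks its translation, and IFIT2 and IFIT3 are partners that bind RNA or other IFIT proteins. Ifit3b is a near copy of Ifit3, and Ifit1bl1 and Ifit1bl2 are Ifit1-like genes that are less well described. Ifit transcripts are low in unstimulated lymphocytes and are among the most strongly induced after interferon.

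All 6 genes lie side by side on chromosome 19, within 99316 bases (GRCm38, from 34550694 to 34650009). From left to right they are Ifit2 (ENSMUSG00000045932, plus strand, 34550694 to 34576419), Ifit3 (ENSMUSG00000074896, plus strand, 34583531 to 34588731) and Ifit1bl1 (ENSMUSG00000079339, minus strand, 34592891 to 34601956). Ifit3b (ENSMUSG00000062488, plus strand, 34607970 to 34613401), Ifit1bl2 (ENSMUSG00000067297, minus strand, 34617049 to 34640743) and Ifit1 (ENSMUSG00000034459, plus strand, 34640871 to 34650009) follow. Ifit1bl2 and Ifit1 are read away from each other with 127 bases between them, and Ifit3 and Ifit1bl1 towards each other with 4159 bases between them.

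The upstream sequences of the members with an ISRE core are shown because the near copies Ifit3 and Ifit3b, whose counts differed in opposite directions between the libraries, have almost the same letters there. The motif searched was GAAANNGAAA on both strands, in RefSeq promoter windows of 300 bases (GRCm38.p6, 250 bases before a start site and 50 after it). It was present for 5 of the 6 members, for 12 of 33 matched genes of a list of other interferon-stimulated genes (36.4%) and for 1079 of all 27025 genes (3.99%), or 3.44% of all 32851 windows. Neither window of Ifit2 held these letters. Capitals mark the motif, which reads TTTCNNTTTC where it lies on the other strand.
Ifit3, chr19:34583338-34583497, plus strand: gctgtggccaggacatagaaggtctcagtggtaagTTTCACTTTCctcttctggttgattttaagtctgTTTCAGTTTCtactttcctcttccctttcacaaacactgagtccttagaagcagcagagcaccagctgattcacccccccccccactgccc
Ifit3b, chr19:34607734-34607893, plus strand: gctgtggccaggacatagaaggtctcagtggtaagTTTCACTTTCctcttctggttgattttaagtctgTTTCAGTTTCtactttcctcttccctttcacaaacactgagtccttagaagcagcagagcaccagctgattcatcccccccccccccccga
Ifit1bl1, chr19:34601982-34602107, minus strand: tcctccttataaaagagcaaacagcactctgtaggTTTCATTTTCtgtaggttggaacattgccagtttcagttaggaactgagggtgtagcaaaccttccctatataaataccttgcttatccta
Ifit1, chr19:34640750-34640870, plus strand: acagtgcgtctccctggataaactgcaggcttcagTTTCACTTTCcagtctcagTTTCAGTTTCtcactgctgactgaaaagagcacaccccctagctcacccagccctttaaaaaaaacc
The Ifit3 and Ifit3b stretches carry the same pair of cores in the same spacing. Over the 250 bases before the start site, 216 of 218 aligned bases were identical between them (99.1%), with 64 gap positions. The pair of cores before Ifit1 is also the pair before Ifit1bl2, read from the other strand: the windows of these genes share 245 bases, and their start sites are 146 bases apart. Ifit1bl1 has 1 core in the window shown, 104 to 95 bases before that start site. The window of another Ifit1bl1 start site also holds 1 core, at -23 to -14 bases from that site. A match is a description of letters and was not tested as a binding site.

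Near-identical copies can also share reads. Of the 1656 stretches of 90 bases in the annotated Ifit3 transcript, 582 (35.1%) occur without change in Ifit3b. In the last 500 bases of Ifit3, where a 3′ library mostly reads, 27 of 411 (6.57%) do. For Ifit1, 104 of 2567 stretches (4.05%) occur in Ifit1bl2 and none of those in its last 500 bases. The last 500 bases of Ifit3b and those of Ifit1bl1 hold no stretch that occurs in another member. Counts of Ifit3 and Ifit3b are therefore uncertain where reads fell in shared parts, and no source used here says how the authors' counting treated such reads.

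After removal of poor barcodes, 7955 cells of the library labelled Irf4-/- and 12367 of the library labelled WT were kept, with medians of 9540 and 7125 UMIs per cell and 25 barcodes in common. The library labelled Irf4-/- held more Irf4 (803 UMIs, 9.77 CPM) than the other (287 UMIs, 3.04 CPM). A 3′ count can lie outside the disrupted part, so it does not check the genotype, and groups are named here by their labels. Although sorted as NKP, most cells carried T cell transcripts: 74.1% and 79.9% were T cells by their CD3 genes, 797 and 1254 were gamma-delta T cells with at least 3 UMIs of Trdc, and 1043 and 909 were B cells by Cd79a and Cd79b. Trac, the T cell receptor alpha constant gene, was at 514 and 516 CPM in T cells and 5.92 and 4.32 in B cells. In gamma-delta T cells Trac was at 135 and 157 CPM. Trbc2, a beta constant gene, was at 1020 and 1075 there, against 1438 and 1424 in T cells, so alpha and beta transcripts were present in that class. Ms4a1, the gene of CD20, was at 1655 and 1963 CPM in B cells and 0.338 and 0.254 in T cells, a measure of how much B cell RNA was counted in T cells. The 6 natural killer markers summed to between 149 and 200 CPM in each library and state. Doublets were not removed; 146 and 223 cells with both CD3 and CD79 transcripts were kept out of the classes.

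Over all kept cells, the 2 adjacent genes Ifit3 and Ifit1bl1 were almost or wholly without counts in the library labelled Irf4-/-, while the 4 members around them were counted in both. Ifit3 had 16 UMIs there and 2687 in the library labelled WT, or 0.195 and 28.5 CPM. This is 146-fold lower (log2 ratio -7.19, interval -8.00 to -6.49). Ifit1bl1 had 0 and 2768 UMIs. A count of 0 allows up to 3, which puts Ifit1bl1 at least 804-fold lower. In the WT library Ifit1bl1, at 29.3 CPM (interval 28.2 to 30.4), and Ifit3 (27.4 to 29.6) were the most abundant members, with intervals that overlap. Ifit1bl1 had no UMI in the 7955 cells of the other. A gene that is deleted or altered in sequence and a gene that is less transcribed cannot be told apart from these counts.

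The remaining members differed far less. Ifit2, the leftmost gene, had 673 and 1577 UMIs, 8.19 and 16.7 CPM (log2 ratio -1.03, interval -1.16 to -0.90). Ifit1, the rightmost, had 1114 and 1815 UMIs, 13.6 and 19.2 CPM (log2 ratio -0.50, interval -0.61 to -0.40). Ifit3b, the near copy of Ifit3, went the other way, with 627 and 501 UMIs, 7.63 and 5.31 CPM (log2 ratio 0.52, interval 0.35 to 0.70). Ifit1bl2 had 46 UMIs in each library, and the interval of its log2 ratio included 0 (0.20, interval -0.42 to 0.82). All 6 summed to 30.1 and 99.5 CPM (log2 ratio -1.72, interval -1.79 to -1.66). By at least 2-fold, 3 of 6 members were lower, Ifit2 only just, and none higher. Of all 14117 genes with at least 20 UMIs, 1.41% were lower and 4.55% higher by as much, and the members were chosen on this contrast.

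**Figure D1:**
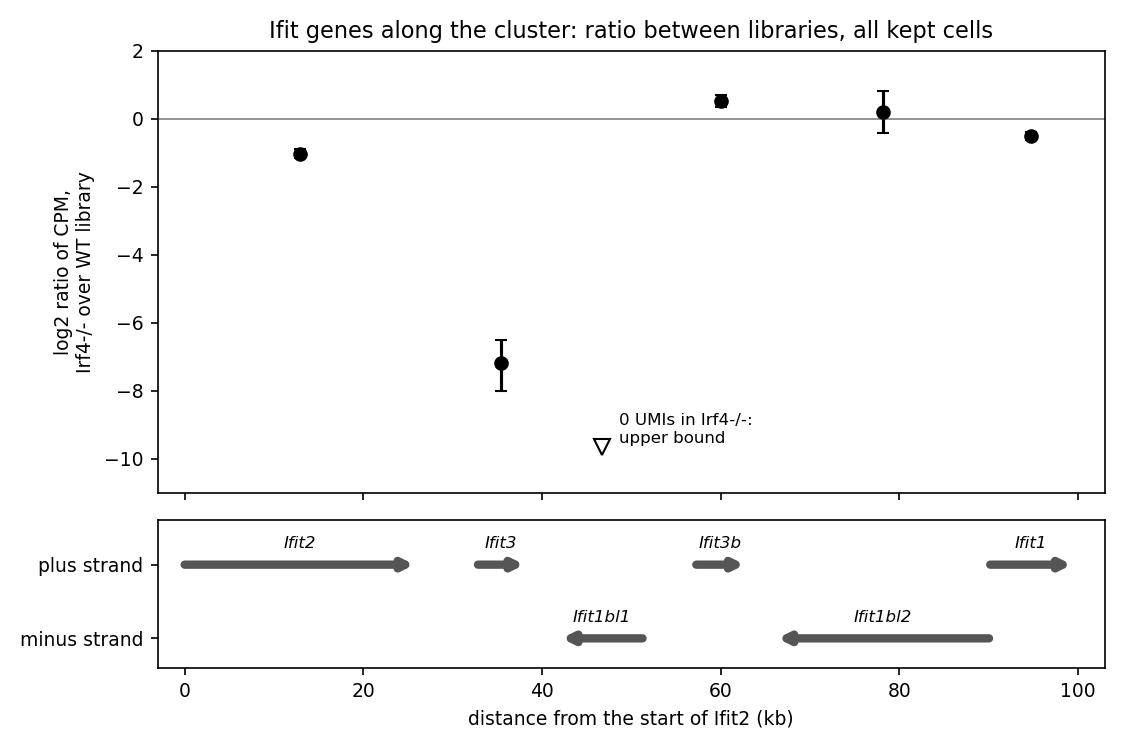
The upper panel plots each member's log2 ratio of CPM (first Irf4-/-, then WT, by label) against the middle of the gene in kb from the start of Ifit2, with 95% counting intervals, and the lower panel draws the genes as arrows by strand. Ifit3 at -7.19 and Ifit1bl1 at or below -9.65 stand between members whose ratios lie from -1.03 to 0.52.

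The flanking genes did not share the difference. The nearest 3 measured genes on the left were Acta2, smooth muscle actin (14 and 13 UMIs, log2 ratio 0.31), Fas, a death receptor (-0.32), and Lipa, lysosomal acid lipase (-0.32). On the right they were Pank1, a pantothenate kinase (-0.17), Kif20b, a mitotic kinesin (0.43), and Rpp30, a subunit of ribonuclease P (0.16). Among genes with at least 500 UMIs, 5 passed a 32-fold ratio either way. Besides Ifit1bl1 and Ifit3 these were Gzmk, a granzyme (1 and 721 UMIs), Elane, neutrophil elastase (1645 and 24), and Igha, the IgA constant region (12 and 607), which lie on other chromosomes. Of all 14117 genes with at least 20 UMIs, 14 (0.0992%) passed that ratio. That share is over a wider set than the genes with at least 500 UMIs, whose number is not given here.

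The 16 Ifit3 UMIs of the library labelled Irf4-/- were spread over 16 cells, with never more than 1 in a cell. Of these cells, 8 were interferon-responding, 7 also held Ifit3b and 1 had a barcode found in both libraries. In the WT library Ifit3 was counted in 1092 cells and reached 30 UMIs in a cell. Whether the 16 UMIs came from Ifit3 transcripts, from shared stretches of Ifit3b or from free RNA was not tested.

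Interferon-responding cells were taken as those with at least 3 UMIs of Isg15, Rsad2 and Usp18 together, which code for a ubiquitin-like modifier, viperin and a protease that removes that modifier. They numbered 381 in the library labelled Irf4-/-, or 4.79% of cells (4.33 to 5.28). The WT library had 422, or 3.41% (3.10 to 3.75). The gate is a range of a score and depends on depth, which was higher in the library labelled Irf4-/-. With each cell thinned to 2000 UMIs, shares with at least 1 gate UMI were 8.69% and 6.06%, and with at least 3 they were 0.934% and 0.943%, so no order of the libraries is read from them.

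In both libraries the Ifit genes were far higher in responding cells than in the rest. In the WT library Ifit3 was at 405 CPM in responding cells (1625 UMIs, interval 386 to 425) and 11.8 in the rest (1062 UMIs, interval 11.1 to 12.5), 34.5-fold. Ifit1 was at 293 and 7.07 CPM (1176 and 639 UMIs), 41.4-fold, and Ifit3b at 73.0 and 2.30 (293 and 208 UMIs), 31.7-fold. The ratios of these 3 members lay close together. The other members differed less: Ifit2 was at 81.5 and 13.8 CPM, 5.89-fold, Ifit1bl2 at 1.74 and 0.432 on 7 and 39 UMIs, 4.04-fold, and Ifit1bl1 at 92.5 and 26.5, 3.49-fold. The intervals of the log2 ratios of Ifit2 (2.38 to 2.74) and Ifit1bl1 (1.64 to 1.96) did not meet those of Ifit1, Ifit3 and Ifit3b, of which the lowest bound was 4.73.

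In the library labelled Irf4-/-, Ifit1 was at 140 CPM in responding cells (662 UMIs) and 5.83 in the rest (452 UMIs), 24.1-fold. Ifit3b was at 64.7 and 4.16 CPM (305 and 322 UMIs), 15.6-fold, and Ifit2 at 36.1 and 6.49 (170 and 503 UMIs), 5.56-fold. Ifit3 had 8 UMIs in each state, 1.70 and 0.103 CPM. Ifit1bl1 had 0 in both, and Ifit1bl2 had 3 and 43. By at least 2-fold, 3 of the 4 members with 20 UMIs were higher in responding cells here and 6 of 6 in the WT library. Over all genes those shares were 4.66% and 6.57%, and the members were chosen on this contrast. Over the other gates and with thinning, the log2 ratio of responding cells over the rest ran from 4.53 to 5.58 for Ifit1, 4.33 to 5.29 for Ifit3 and 4.21 to 5.30 for Ifit3b in WT, and from 2.05 to 3.04 for Ifit2 and 1.37 to 2.23 for Ifit1bl1. Under the Irf4-/- label the ranges were 3.61 to 5.25 for Ifit1, 3.01 to 5.02 for Ifit3, 3.21 to 4.71 for Ifit3b and 1.91 to 3.34 for Ifit2.

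**Figure D2:**
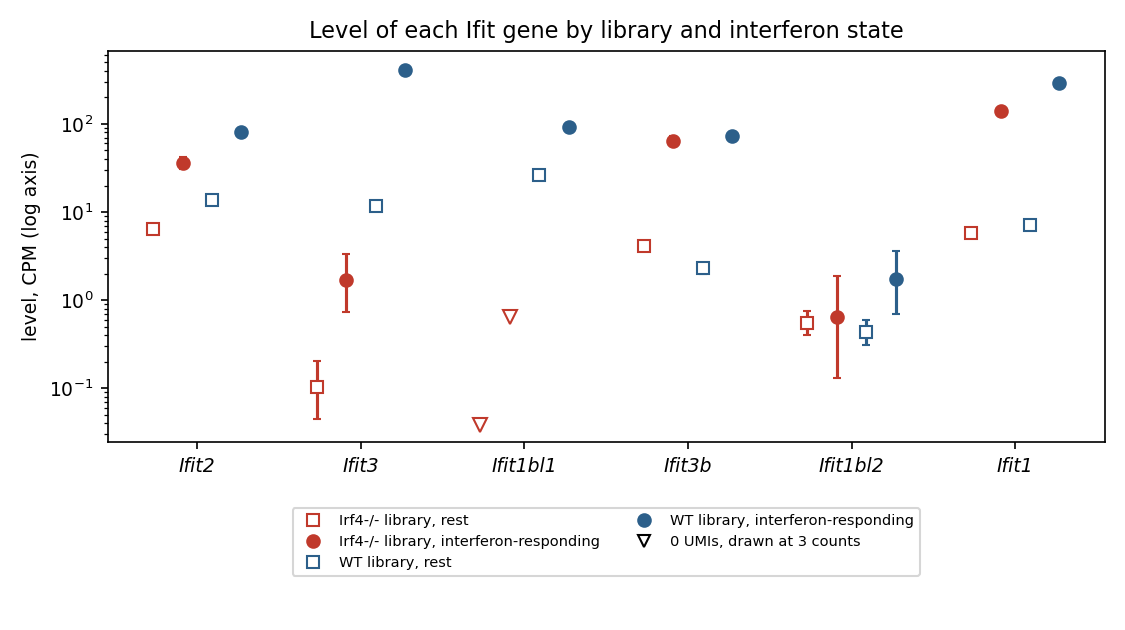
Level of each member in CPM on a log axis, by library (colour) and interferon state (open square for the rest, filled circle for responding cells), with 95% counting intervals and open triangles at 3 counts where no UMI was seen. Filled points lie above open squares for every member counted in a library, by little for Ifit1bl2 in the library labelled Irf4-/-, and Ifit3 and Ifit1bl1 separate the libraries in both states.

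The order of the members changed with the state. In the rest of the WT library it was Ifit1bl1 (26.5 CPM), Ifit2 (13.8), Ifit3 (11.8), Ifit1 (7.07), Ifit3b (2.30) and Ifit1bl2 (0.432), with no overlap of neighbouring intervals. In responding WT cells Ifit3 led, then Ifit1, then Ifit1bl1, Ifit2 and Ifit3b, whose intervals met their neighbours' (83.3 to 102, 72.9 to 90.8 and 64.9 to 81.9). Ifit1bl1 made up 42.8% of all Ifit UMIs in the rest and 9.77% in responding cells, and Ifit3 18.98% and 42.8%. In all, 86.6% of the Ifit1bl1 UMIs of the WT library lay outside the responding cells, against 39.5% of those of Ifit3 and 35.2% of those of Ifit1. In the library labelled Irf4-/- the rest held mostly Ifit2 (37.9%), Ifit1 (34.0%) and Ifit3b (24.2%), and responding cells Ifit1 (57.7%), Ifit3b (26.6%) and Ifit2 (14.8%).

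**Figure D3:**
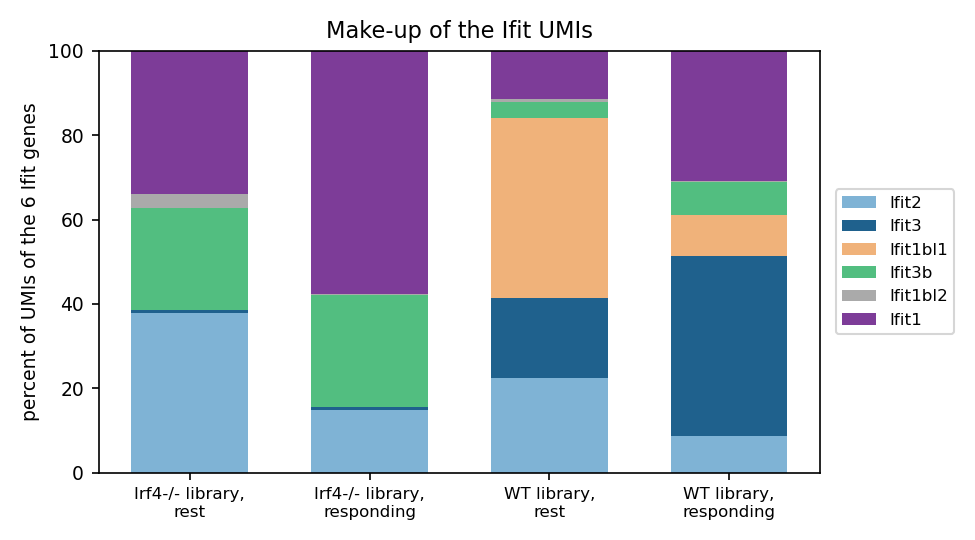
Stacked bars give the percent of all UMIs of the 6 Ifit genes that each gene contributed, by library and interferon state. Ifit3 and Ifit1bl1 together fill most of both WT bars, and Ifit1, Ifit2 and Ifit3b nearly all of both bars of the library labelled Irf4-/-.

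Compared between libraries within responding cells, Ifit3 was 239-fold lower in the library labelled Irf4-/- (log2 ratio -7.90, interval -9.11 to -6.92) and Ifit1bl1 at least 145-fold lower. Ifit2 had a log2 ratio of -1.18 (interval -1.45 to -0.90), Ifit1 -1.06 (-1.20 to -0.92) and Ifit3b -0.17 (-0.41 to 0.06). That left 4 of 5 members with 20 UMIs at least 2-fold lower, beside 0.834% of all 9957 genes in these cells, on a contrast used to choose them. Other interferon-stimulated genes had a median log2 ratio of -0.34 in responding cells, against 0.073 for all genes. The gate genes were not alike there: Isg15 had -0.38, Rsad2 -0.71 and Usp18 -0.14 (interval -0.31 to 0.029). Outside the gate Usp18 had 1.15, Isg15 0.32 and Rsad2 0.029. Whether the responding cells of the libraries differed in the strength of the response was not tested. With a gate of at least 6 UMIs, Ifit1 and Ifit2 had -0.66 and -0.78, under 2-fold, and Ifit3b had 0.20, on the other side of 0, and the bound for Ifit1bl1 was -6.34. In the rest of the cells Ifit2 had -1.09, Ifit1 -0.28 (interval -0.45 to -0.10) and Ifit3b 0.85 (0.60 to 1.11), and Ifit3 and Ifit1bl1 stayed at -6.83 and at or below -9.42.

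The members were then read along the summed count of the 3 gate genes, which shows the cells just outside and just inside the gate. In the WT library Ifit3 was at 8.46 CPM in cells with no gate UMI, 78.9 in the 238 cells with 2 and 179 in the 193 cells with 3 to 5. It reached 762 in the 77 cells with 12 or more. Ifit1 ran from 4.80 through 46.2 and 114 to 609, and Ifit3b from 1.87 through 14.1 and 27.3 to 143. Ifit1bl1 was flatter, at 25.7 with no gate UMI, 41.7 with 2, 50.7 with 3 to 5 and 159 with 12 or more. Ifit2 took 13.1, 25.8, 37.3 and 167 at the same counts. None of these steps singles out the limit of 3 UMIs.

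In the library labelled Irf4-/-, Ifit1 was at 4.30 CPM with no gate UMI, 16.1 in the 350 cells with 2, 46.9 in the 231 cells with 3 to 5 and 361 in the 76 cells with 12 or more. Ifit3b took 3.26, 7.14, 22.6 and 175 at these counts, and Ifit2 6.17, 10.3, 14.0 and 110. At 12 or more gate UMIs Ifit3b was thus at 175 and 143 CPM in the 2 libraries, while Ifit1 was at 361 and 609. This top range is not alike in them: it ran to 116 gate UMIs in a cell under the Irf4-/- label and to 31 in WT. Cells rich in erythroid transcripts, described below, were not left out of it. Ifit1bl1 stayed at 0 in every range of gate counts.

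**Figure D4:**
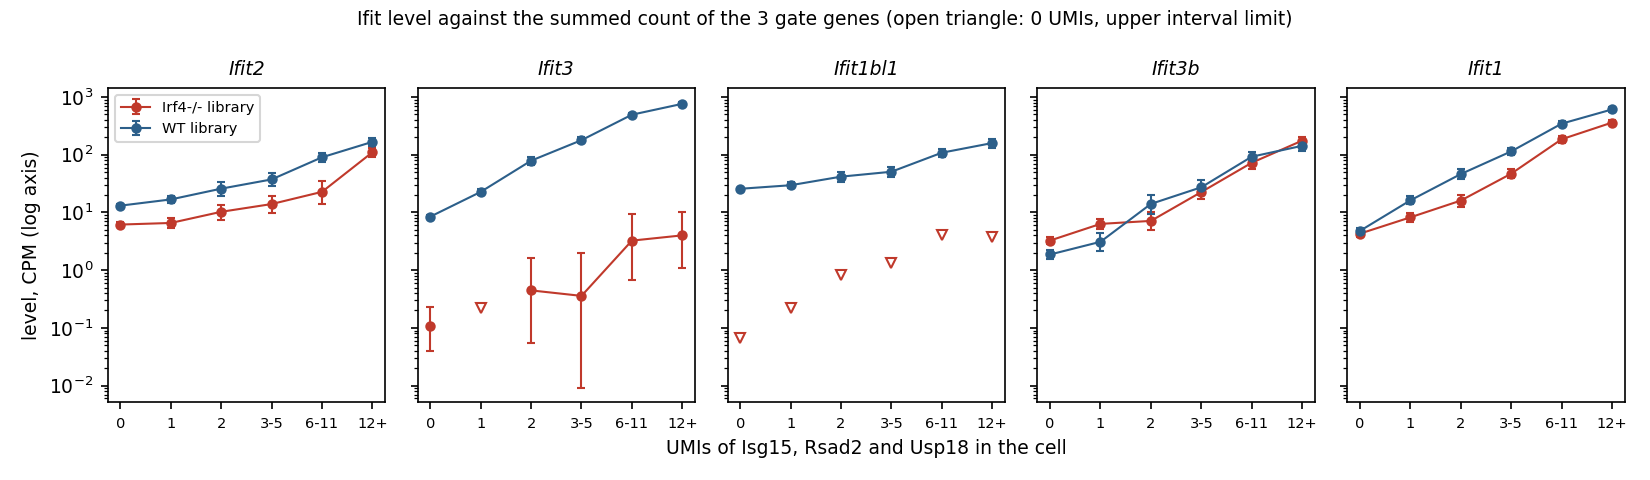
Level of 5 members in CPM on a log axis against the number of Isg15, Rsad2 and Usp18 UMIs in the cell, with 95% counting intervals and open triangles at the upper limit where no UMI was seen. In WT cells Ifit1, Ifit3 and Ifit3b climb most and Ifit1bl1 starts at 25.7 and climbs least, and in the library labelled Irf4-/- Ifit3 stays below 10 and Ifit1bl1 at 0.

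Cell by cell, Ifit3 was the member found most often in responding WT cells, in 313 of 422 (74.2%), followed by Ifit1 (67.3%), Ifit1bl1 (49.3%), Ifit2 (39.3%), Ifit3b (34.1%) and Ifit1bl2 (1.42%). In responding cells of the library labelled Irf4-/- the shares were 48.8% for Ifit1, 34.9% for Ifit3b, 21.3% for Ifit2, 2.10% for Ifit3 and 0 of 381 for Ifit1bl1. A floor of 3 cells allows a share of cells with a UMI of up to 0.787%. Thinned to 2000 UMIs, Ifit3 was seen in 46.2% and 0.262% of responding WT and Irf4-/- cells, Ifit1 in 39.8% and 23.6%, Ifit2 in 14.7% and 7.35%, and Ifit3b in 14.0% and 14.7%. Median depth in responding cells was 8204 and 10650 UMIs in that order. No class here is known to lack Ifit transcripts, so the share that free RNA gives was not measured for them. At least 3 members were found together in 236 responding WT cells (55.9%) and in 48 responding cells of the library labelled Irf4-/- (12.6%). In the latter Ifit1bl1 was in none and Ifit3 in 2.10%, so fewer members could be found together. These 2 shares therefore do not compare joint detection on the same genes.

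Outside the gate, Ifit1bl1 was again the member found in most WT cells, 16.6% of 11945, before Ifit2 (9.32%), Ifit3 (6.52%), Ifit1 (3.77%) and Ifit3b (1.52%). In the 7574 corresponding cells of the library labelled Irf4-/- it was in none, and the same floor allows up to 0.0396%. There Ifit2 was in 6.06%, Ifit1 in 4.57%, Ifit3b in 3.68% and Ifit3 in 0.106%. Ifit3b, Ifit1 and Ifit1bl2 were each found in a larger share of these cells under the Irf4-/- label than in WT. After thinning the shares were 0.730% and 0.463% for Ifit3b, with intervals that met (0.550 to 0.949 and 0.349 to 0.602), and 1.33% and 1.28% for Ifit1.

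Within responding cells the members tended to occur in the same cells. Of 144 WT cells with Ifit3b, 93.75% held Ifit3 and as many Ifit1, against 64.0% and 53.6% of the 278 cells without Ifit3b. Of 284 WT cells with Ifit1, 88.7% held Ifit3, against 44.2% of the 138 without. Ifit1bl1 was in 57.2% of WT cells with Ifit3 and 26.6% of those without. In the library labelled Irf4-/- Ifit1 was in 78.9% of the 133 cells with Ifit3b and 32.7% of the 248 without, and in 70.4% of the 81 cells with Ifit2 and 43.0% of the others. Cells also differ in depth and in the strength of the response, and the part of either was not tested.

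By cell class, Ifit3 was low in the library labelled Irf4-/- in each. It had 15 and 2265 UMIs in T cells (log2 ratio -6.97, interval -7.81 to -6.24), 1 and 301 in gamma-delta T cells (-8.04, interval -13.35 to -5.55) and 0 and 38 in B cells, at least 21.5-fold lower. Ifit1bl1 had 0 UMIs in every class, against 2393, 276 and 19 in the WT library, at least 660-fold, 80.5-fold and 10.8-fold lower. Ifit2 had log2 ratios of -1.01 in T cells (interval -1.16 to -0.87) and -1.46 in gamma-delta T cells (-1.93 to -1.001). In B cells it was at 7.79 and 7.77 CPM on 46 and 27 UMIs (interval -0.71 to 0.74), and the difference between classes was not tested. Ifit1 had -0.49 in T cells, -0.21 in gamma-delta T cells (interval -0.52 to 0.10) and -1.13 in B cells on 14 and 18 UMIs. Ifit3b had 0.62 in T cells, and in gamma-delta T and B cells its intervals included 0. At least 2-fold lower were 3 of 6 members in T cells, 3 of 5 with 20 UMIs in gamma-delta T cells and 2 of 4 in B cells, beside 1.72%, 1.4% and 2.14% of all genes, with these contrasts used in the choice. Of gamma-delta T cells, 12.8% and 19.1% had 3 or 4 UMIs of Trdc, close to the limit.

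T cells of the WT library had higher levels than its B cells. Outside the interferon gate, Ifit1bl1 was at 27.4 CPM in WT T cells and 4.97 in WT B cells (log2 ratio 2.46, interval 1.78 to 3.25). Ifit2 was at 14.1 and 5.27 (1.42, interval 0.76 to 2.18), Ifit1 at 7.20 and 2.93 (1.30) and Ifit3 at 11.99 and 5.56 (1.11, interval 0.46 to 1.85). B cells had the lower value for each of these, on 10 to 19 UMIs. For Ifit3b, at 2.31 and 1.17 CPM with 4 UMIs in B cells, the interval included 0 (0.98, interval -0.40 to 2.87). In the library labelled Irf4-/- Ifit1 was at 5.87 CPM in T cells and 1.73 in B cells (1.76, interval 0.87 to 2.84), while Ifit2 was at 6.58 and 6.39 (0.04, interval -0.45 to 0.57). For members with at least 20 UMIs in gamma-delta T cells outside the gate, the interval of their ratio to other T cells included 0, except for Ifit1 in the library labelled Irf4-/-, at 9.52 against 5.87 CPM (0.70, interval 0.31 to 1.07). In WT cells Ifit1 was at 7.51 and 7.20. B cells were shallower, with medians of 4158 and 2972 UMIs against 10098 and 7367.5 in T cells.

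Among T cells outside the gate, those with a UMI of Cd8b1, a CD8 chain, had more Ifit3b than those without in both libraries. In WT it was at 2.67 and 1.40 CPM (0.94, interval 0.36 to 1.55), and in the library labelled Irf4-/- at 5.54 and 3.18 (0.80, interval 0.43 to 1.18). Ifit3 was at 12.9 and 9.59 in WT (0.43, interval 0.21 to 0.66). Ifit1bl1 was level in WT, at 27.5 and 27.3, and the intervals of Ifit1 and Ifit2 included 0 in both libraries. Inside the gate the order was the other way: Ifit3b was at 68.2 CPM in WT T cells with Cd8b1 and 99.6 in those without. Their intervals met (58.4 to 79.2 and 78.9 to 124). Ifit3 was at 367 and 557 CPM in the same cells. Under the Irf4-/- label Ifit3b was at 68.4 and 80.4 inside the gate, with intervals that met. The share of T cells with Cd8b1 was 47.5% and 65.9%, so the mixture of T cells differed between the libraries, and cells are called by a transcript that depth helps to detect.

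**Figure D5:**
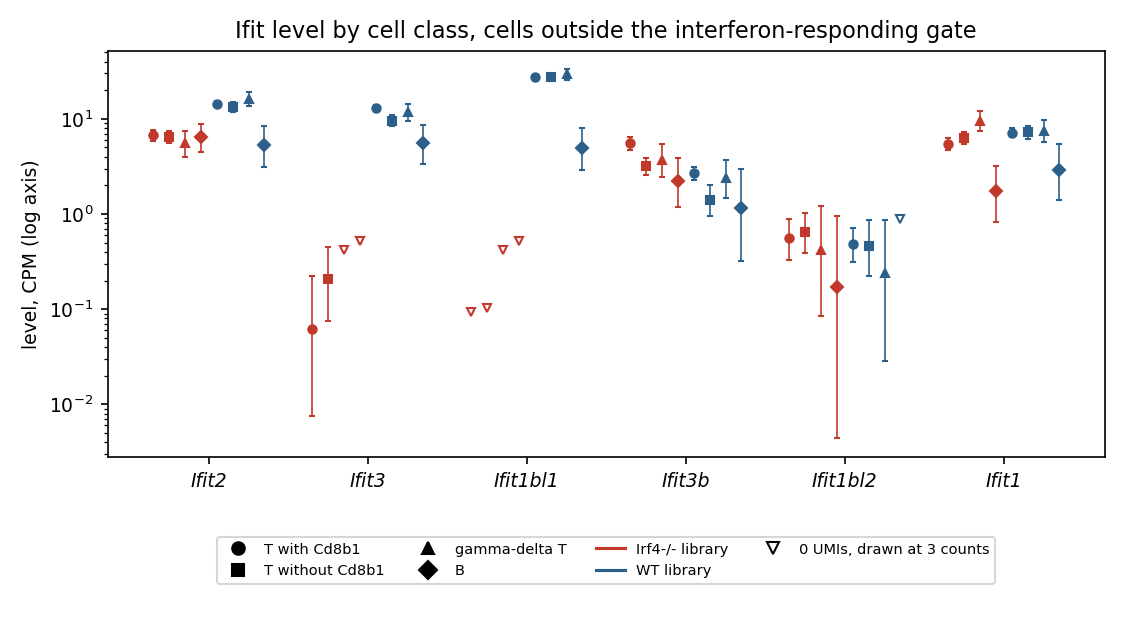
Level of each member outside the interferon gate in CPM on a log axis, by class (marker shape) and library (colour), with 95% counting intervals and open triangles at 3 counts where no UMI was seen. Among WT classes B cells lie lowest for Ifit2, Ifit3, Ifit1bl1, Ifit3b and Ifit1, and no class of the library labelled Irf4-/- holds Ifit1bl1. The WT B cell point for Ifit3b rests on 4 UMIs, and its interval covers the points of the other WT classes.

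By label, Irf4-/- first and WT second, responding cells made up 4.90% and 3.47% of T cells, 5.40% and 3.91% of gamma-delta T cells, and 2.21% and 1.43% of B cells. In T cells the summed members were 15.3-fold higher in responding cells than in the rest in each library. The sums differ in make-up, and single members were not alike. In T cells Ifit1 was 26.1-fold and 42.2-fold higher, Ifit3b 16.7-fold and 32.8-fold, and Ifit2 5.98-fold and 5.82-fold. In B cells, with 23 and 13 responding cells, the summed members were 15.6-fold and 37.2-fold higher, on 20 and 41 UMIs. Responding B cells of the WT library held 19 UMIs of Ifit3, 343 CPM, and those of the library labelled Irf4-/- none.

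Markers of other cell types moved with the state as well. The 9 B cell markers were lower in responding cells than in the rest, at 884 and 1534 CPM under the Irf4-/- label and 628 and 972 in WT. The 3 erythroid markers, all detected in each group, summed to 6068 CPM in responding cells and 90.8 in the rest of the library labelled Irf4-/-, and 9820 and 507 in WT. In responding cells 28579 of 28598 and 39344 of 39402 of these UMIs lay in 10 of 381 and 12 of 422 cells, those with at least 10 of them. Those cells held 10 and 4 UMIs of Ifit1 and 0 and 5 of Ifit3. Of the gate genes they held 152 and 34 UMIs of Isg15, 93 and 58 of Rsad2 and 3 and 3 of Usp18. Without them the summed members were 3.89 and 3.99 higher in responding cells on the log2 scale, against 3.83 and 3.93 with them. In WT the 6 myeloid markers summed to 244 and 118 CPM, with Elane at 0 in responding cells, and under the Irf4-/- label to 999 and 353. The 6 plasmacytoid dendritic markers summed to 463 and 365 under the Irf4-/- label, and to 591 and 301 in WT. Among them, the interferon-induced Bst2 gave 1382 of 2182 and 8062 of 28289 of these UMIs under the Irf4-/- label. In WT Bst2 gave 1569 of 2371 and 7898 of 27178. The other markers of that list were together lower in responding cells than in the rest in both libraries. The part of B cell, myeloid and dendritic RNA in the result was not tested.

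Other genes of the pathway showed no difference of the size seen for Ifit3 and Ifit1bl1. Of 43 listed interferon-stimulated genes, 38 had at least 20 UMIs, and 3 of them were at least 2-fold higher and none lower in the library labelled Irf4-/-. Of all 14117 genes with as many UMIs, 4.55% were higher and 1.41% lower by as much. Their median log2 ratio was 0.16, against 0.043 over all genes. Oas1a and Oas2, which code for synthases of RNase L activators, had 1.37 and 1.09, Ifi44 1.27 and Ifi27l2a 0.97. Of 12 genes of receptors and signalling none passed 2-fold, and among the largest ratios were those of the feedback inhibitor Socs1 (0.43), the interferon gamma receptor chain Ifngr2 (0.38) and Tyk2 (0.15). Of 10 measured nucleic acid sensors none did either, with Dhx58 at 0.44, Zbp1 at 0.42, Tlr3 at -0.39 on 28 and 42 UMIs and Tlr7 at 0.28. Ifng, interferon gamma, was the only one of 10 ligands with 20 UMIs (606 and 497, log2 ratio 0.49). Ifnk had 2 UMIs in each library, and Ifnb1 and the 4 listed Ifna genes had none.

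The same lists were read between responding cells and the rest. In the library labelled Irf4-/-, 29 of 38 interferon-stimulated genes were at least 2-fold higher in responding cells, and 33 of 38 in WT, with median log2 ratios of 1.40 and 1.87. Of the sensors 8 of 10 were higher in each library, and of receptors and signalling 1 of 12 and 4 of 12. Over all genes 4.66% and 6.57% were at least 2-fold higher, and the median was -0.023 and -0.048. The responding cells were themselves picked by 3 interferon-stimulated genes, which are not on the list. Ifit1 at 4.59 and 5.37 lay above Oasl2 (2.90 and 4.32), Ifi44 (3.95 and 4.86) and Cmpk2 (3.16 and 3.78). Ifit1bl1 at 1.80 and Ifit2 at 2.56 in WT lay within the range of the list.

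Likeness was measured as Pearson's r of log2(CPM + 1) over 15 blocks of library, class and interferon state with at least 20 cells each, among 10844 genes. The blocks share libraries and depth, so r is a description. Ifit3 was most like Ifit1bl1 (r 0.92), and Alas2 (0.89), Tasor2 (0.89) and Alkbh1 (0.84) were also among the 5 genes most like it. Without the cells of at least 10 erythroid UMIs, Alas2 was no longer among the 5, and Desi2 and Dnaja1 entered, each at 0.84. After Ifit3, Ifit1bl1 was most like Dnaja1 (0.89), Gm47283 (0.83), Orai1 (0.83) and Klf13 (0.81). Ifit3b was most like Usp18 (0.99), Isg15 (0.99), Rsad2 (0.98), Ifih1 (0.98) and Bst2 (0.98), of which the first 3 define the states. Ifit1 was most like Trim30c (0.98), Igtp (0.98), Cxcl10 (0.98), Ifih1 (0.98) and Rsad2 (0.97). Ifit2 was most like Ifi213 (0.95), Znfx1 (0.94), Rsad2 (0.93), Dtx3l (0.93) and Irf7 (0.93).

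Within the 7 WT blocks alone the pattern of Ifit3 changed neighbours. There it was most like Ifit1 (0.999), Ifit3b (0.998), Isg15, Bst2 and Usp18. The blocks are split by the interferon gate, to which Isg15 and Usp18 belong. Genes that rise with the gate can thus have a high r by construction. The 13 responding WT B cells were too few to form a block. Ifit3 and Ifit3b had r 0.42 over all 15 blocks. Ifit1bl1 was most like Tgtp1 (0.99) in the WT blocks, and its r with Ifit1, Ifit3 and Ifit3b was 0.89, 0.88 and 0.86. Between Ifit1 and Ifit3b, both counted in each library, r was 0.95 over 15 blocks.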

How the data were processed

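The authors deposited raw UMI counts of each gene in each barcode. Per the file headers they come from Cell Ranger 6.1.1, and per the submitters' processing notes the genome was mm10. No source used here gives the annotation release, and the labels' protocol speaks of nuclei where the sort was of cells. Of 32285 gene IDs, 32158 matched GENCODE annotation of GRCm38, which gave positions and transcripts. Barcodes with at least 500 genes, at least 1000 UMIs and under 10% mitochondrial UMIs were kept, 7955 of 8147 and 12367 of 12732. T cells had at least 3 UMIs of Cd3d, Cd3e and Cd3g and under 3 of Cd79a and Cd79b and of Trdc. Gamma-delta T cells had at least 3 of Trdc, and B cells at least 3 of Cd79a and Cd79b and under 3 of CD3. Counts were summed per group and compared as log2 ratios of CPM (UMIs per 1000000), with exact conditional binomial 95% intervals. Levels have exact Poisson intervals and shares exact Clopper-Pearson intervals. These cover counting error only, and a count of 0 was set to a floor of 3 counts over the group. Folds given as at least a value rest on that floor, and their exact 95% limits were less extreme. No test was made, with 1 library per genotype. The code for intervals was tested on simulated counts. Python 3.11.15, numpy 2.4.6, scipy 1.17.1, pandas 2.3.3 and biopython 1.88 were used.

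Genes were named by rule: the members, Irf4, the gate genes, 3 measured neighbours on each side, genes of at least 500 UMIs past 32-fold, the 5 genes most like each member of at least 200 UMIs, and the 4 largest ratios of each list. Some genes that this rule takes are not reported here. Other genes named are markers or examples for comparison, chosen after their values were seen. Members and lists were chosen with earlier results of these data known. Listed Oas1b, Mx1, Mx2 and Mb21d1 matched no symbol. Alternatives were other barcode filters, gates, scalings and thinning to 2000 UMIs. Leaving out cells with at least 10 erythroid UMIs was chosen after seeing the data.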

Additional observations from a re-analysis of the deposited data

How the results depend on the processing

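No paired analysis was possible because each genotype had 1 library and no replicate numbers. No ratio whose interval excluded 0 changed sign. Among those whose interval included 0, Ifit1bl2 in responding cells over the rest under the Irf4-/- label went from 0.20 to -0.40 with a gate of at least 2 UMIs and -0.43 with thinning. Ifit3b between libraries in responding cells went from -0.17 to 0.20 with a gate of at least 6 UMIs and 0.04 with Isg15 and Rsad2 only. Ifit2 in B cells and Ifit1bl2 in T cells, both near 0, also changed sign. Other barcode filters, median centring, class limits and the removal of cells with at least 10 erythroid UMIs left the ratios over all cells, the summed ratios by class and the list median within their intervals. The interferon gate moved the other results. For the gates of at least 2 UMIs, at least 6 UMIs, Rsad2 and Usp18 only, Isg15 and Rsad2 only, and Ifi44, Oasl2, Cmpk2 and Rtp4, the responding share was 9.19%, 1.89%, 3.997%, 3.52% and 4.30% in the library labelled Irf4-/-. In WT it was 5.34%, 1.85%, 2.46%, 2.90% and 2.20%, and thinning gave 8.69% and 6.06%. The summed members in responding cells over the rest, as log2 ratios, were 3.14, 4.61, 3.56, 4.08 and 3.43 under these gates and 3.05 with thinning in the library labelled Irf4-/-. In WT they were 3.55, 4.33, 4.01 and 3.56 under the gates that moved them and 3.26 with thinning. The summed ratio between libraries in responding cells was -2.28, -1.54, -2.25, -1.76 and -2.07. These gates take other cells by construction. The design could not separate genotype from library, and depth limits Ifit1bl2 and all B cell values.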
